A study of Homo sapiens with 4 samples.

Results

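Transcripts of 8 genes for intestinal ion transport were examined: the chloride and bicarbonate channel CFTR, the cotransporter SLC12A2, the anion exchangers SLC26A3 and SLC26A6, the sodium-hydrogen exchangers SLC9A2 and SLC9A3, the sodium pump subunit ATP1B1 and the potassium channel KCNQ1. They were found by Ensembl gene identifier among the 60658 identifiers of each library. The set was chosen by measured values: the FPKM of CFTR differed between the cell lines and was lower with the siRNA in LIM1215. Values in those contrasts are therefore descriptions of genes picked with these values known, and carry no test.

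The study asked what the transmembrane protein TMEM161A does in colorectal cancer cells. RNA sequencing was done on 2 established human colorectal cancer lines, HT29 and LIM1215. In each line, 1 library (NC) came from cells given a negative control siRNA and 1 library (si2) from cells given an siRNA against TMEM161A. With 1 library per group and 4 in all, no value has a replicate error. The level of a transcript is given as FPKM, its fragment count corrected for transcript length and library size, so that genes can be compared. By estimate, each kilobase of a transcript at FPKM 1 was covered by 18.1 to 21.5 sequenced fragments. From this, 95% counting intervals were computed (exact Clopper-Pearson). They cover counting error alone and not the variation between cultures.

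Differences are given as the log2 ratio of FPKM + 1, called at a size of at least 1, that is 2-fold, for the 14803 genes with a mean FPKM of at least 1. This scale understates the difference of low genes, so the plain FPKM ratio is given as well. The siRNA target TMEM161A had an FPKM of 42.6 (NC) and 4.64 (si2) in HT29, and of 39.1 and 7.61 in LIM1215. Scaling by the summed FPKM shifted the median gene of the comparison between the controls by −0.16, and upper quartile scaling by −0.13. The first changed the number of genes higher and lower in LIM1215 from 1773 and 1099 to 1527 and 1516.

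The labelled tissue was checked with 11 markers of colon epithelium. EPCAM, KRT8, KRT18 and KRT19, which mark epithelia in general, were abundant in all libraries. In both libraries labelled HT29, 5 markers lay under an FPKM of 1: KRT20, VIL1, LGALS4, CDH17 and GPA33. VIL1, the brush border protein villin, was at 0.0397 and listed at 0 in the NC and si2 libraries labelled HT29, against 192 and 261 in LIM1215. All 11 exceeded 1 in both LIM1215 libraries. The summed level of the list was 3140 and 3588 in the libraries labelled HT29 and 8338 and 10217 in LIM1215. Between the controls 10 of the 11 were higher in LIM1215 by the threshold used here and KRT19 was not. HT29 cells are known to express villin and CDH17, so these levels are unusual for the line. Whether the libraries labelled HT29 hold HT29 cells was not tested, and each difference between the lines is one between libraries so labelled. The part of these markers in those differences was not tested. Of 12 markers of blood, vessel, connective tissue, muscle and nerve cells, 8 or 9 lay under an FPKM of 1 in each library, with PTPRC and CD3E listed at 0 in all libraries. Their sum was 28.6 and 34.0 in HT29 and 68.1 and 88.3 in LIM1215, most of it from CD68 in LIM1215. In HT29 the highest was COL1A1, a collagen gene of connective tissue, at 17.6 and 16.0, against 4.83 and 8.56 in LIM1215. Of 9 markers of rare epithelial cells, all lay under 1 in HT29 and 8 in LIM1215, where TFF3, a goblet cell peptide, was at 53.0 and 83.1.

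In the intestine, chloride enters the epithelial cell from the blood side through SLC12A2 and leaves into the lumen through CFTR, which cyclic nucleotide signals open. The sodium pump and potassium channels of the blood side keep up the gradients that drive this secretion. For absorption of salt, sodium-hydrogen exchangers and chloride-bicarbonate exchangers of the luminal membrane work side by side. CFTR is the gene mutated in cystic fibrosis, and loss of SLC26A3 causes congenital chloride diarrhoea.

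RefSeq promoter sequences (GRCh38.p14) were at hand for 7 of the 8 genes, all but KCNQ1. The 250 bases before the start site are shown for 3 luminal genes whose level differed steeply between the lines, to let their unlike composition be seen. Capitals mark matches, on either strand, to 5 short motifs. The core for the nuclear receptor HNF4A was written CAAAGTC. For the forkhead factors of the FOXA family the letters were TGTTTAC. The caudal factors CDX1 and CDX2 were given by TTTATG, and zinc finger factors such as GATA6 by AGATAA. The cAMP response element was searched as TGACNTCA. The motifs were chosen after the sequences were seen.
CFTR, plus strand, chr7:117479775-117480024: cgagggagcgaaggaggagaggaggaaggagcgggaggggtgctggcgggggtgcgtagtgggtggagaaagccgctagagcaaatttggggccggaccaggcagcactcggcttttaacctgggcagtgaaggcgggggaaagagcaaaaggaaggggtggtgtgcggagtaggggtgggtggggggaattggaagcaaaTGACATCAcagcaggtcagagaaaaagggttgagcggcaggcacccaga
SLC26A3, minus strand, chr7:107803224-107803473: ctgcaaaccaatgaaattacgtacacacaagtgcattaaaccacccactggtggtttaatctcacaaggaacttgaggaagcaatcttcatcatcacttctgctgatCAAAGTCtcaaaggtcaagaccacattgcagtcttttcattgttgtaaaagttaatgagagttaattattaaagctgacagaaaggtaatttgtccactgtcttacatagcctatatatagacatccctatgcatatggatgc
SLC9A2, plus strand, chr2:102619303-102619552: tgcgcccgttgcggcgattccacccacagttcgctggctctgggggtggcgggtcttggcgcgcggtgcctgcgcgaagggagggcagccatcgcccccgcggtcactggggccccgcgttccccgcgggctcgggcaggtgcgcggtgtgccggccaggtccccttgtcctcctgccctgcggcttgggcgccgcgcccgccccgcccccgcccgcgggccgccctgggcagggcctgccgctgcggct
The SLC26A3 window had 37.6% G and C and 1 CG pair, whereas that of CFTR had 61.2% and 11 pairs and that of SLC9A2 had 79.6% and 34 pairs. The median over 35116 windows was 58% and 11 pairs. In SLC26A3 the HNF4A core began 143 bases before the start site, and 2.91% of windows held it. A second annotated start site of SLC26A6, whose level did not differ 2-fold between the lines, also had this core in its window. CFTR held a cAMP response element as TGACATCA, beginning 49 bases before the start site, as 6.87% of windows hold one. The FOXA, CDX and GATA motifs are found in 2.98%, 9.64% and 9.17% of windows, with no match to these 3 in the windows shown. SLC9A2 held none of the 5. Nor did the windows, not shown, of SLC9A3 and of SLC12A2 and ATP1B1, whose levels also differed at least 2-fold between the lines. A match is a string of letters and not evidence of binding.

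**Figure D1:**
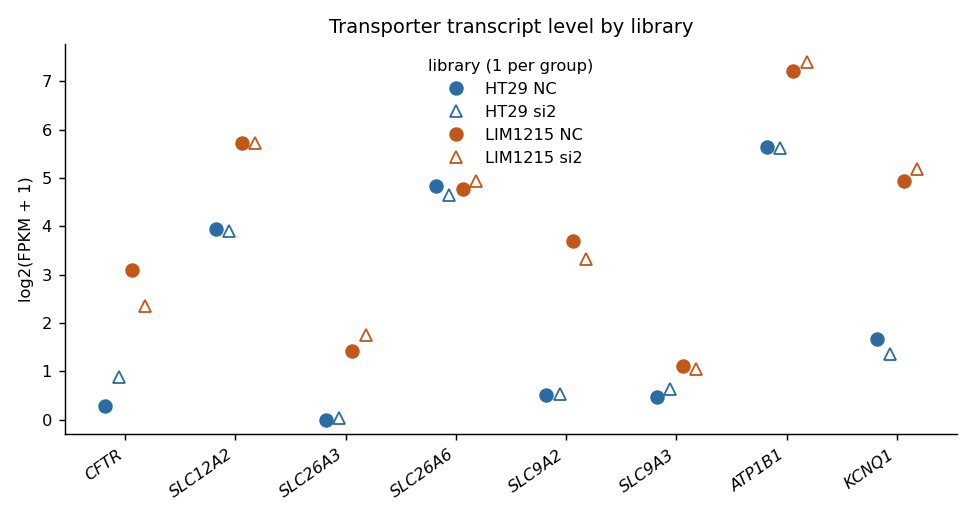
Transcript level of the 8 genes, as log2(FPKM + 1), in the 4 libraries (filled circles NC, open triangles si2, blue HT29, orange LIM1215; 1 library per point, no error bars). All genes but SLC26A6 were higher in both LIM1215 libraries than in both HT29 libraries, and the CFTR points of the lines lie closer together with si2 than with NC.

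Of the 8 genes, 6 differed at least 2-fold between the controls, all higher in LIM1215. They were CFTR, SLC12A2, SLC26A3, SLC9A2, ATP1B1 and KCNQ1, out of the 7 that passed the filter. Among all genes, 12.0% were higher in LIM1215 by this threshold and 7.42% lower. Because the contrast was used to choose the set, nothing is read from this count. CFTR, SLC9A2 and SLC26A3 were under an FPKM of 1 in both HT29 libraries, so these 3 of the 6 passed the filter only through LIM1215, where they are high. SLC26A3 passed it narrowly, with a mean FPKM of 1.02. SLC9A3 did not pass it, with a mean of 0.785. The same 6 genes were past the threshold between the si2 libraries, where 12.7% of all genes were higher in LIM1215 and 8.53% lower. The comparison of the si2 libraries uses different libraries from that of the controls, but the same lines.

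The order of the levels differed between the lines. ATP1B1 was highest in every library, with 51.8% to 55.8% of the summed FPKM of the 8 genes. In the HT29 control it was followed by SLC26A6, SLC12A2, KCNQ1, SLC9A2, SLC9A3, CFTR and SLC26A3. In both LIM1215 libraries the order after ATP1B1 was SLC12A2, KCNQ1, SLC26A6, SLC9A2, CFTR, SLC26A3 and SLC9A3. In the HT29 si2 library CFTR moved from the seventh to the fifth place, above SLC9A3 and SLC9A2, whose levels lie close by. The summed FPKM of the 8 genes was 93.9 and 89.9 in the HT29 control and si2 library and 278 and 302 in those of LIM1215.

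CFTR (ENSG00000001626, chromosome 7, 117287120 to 117715971, plus strand in GENCODE release 44 on GRCh38) is the luminal exit for chloride and bicarbonate. In HT29 its FPKM was 0.218 with the control and 0.834 with si2, and in LIM1215 it was 7.58 with the control and 4.10 with si2. Both LIM1215 values lay above both HT29 values. These levels rested on an estimated 27.1, 105, 804 and 489 fragments in the same order. Between the controls, CFTR was 34.8-fold higher in LIM1215 (counting interval 23.8 to 53.3), a log2 ratio of 2.82. Between the si2 libraries it was 4.92-fold higher (3.98 to 6.14), a log2 ratio of 1.48 that fell short of the threshold with a pseudocount of 5 (0.64).

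Within the lines, CFTR went opposite ways. The si2 level was 383% of control in HT29 (249% to 610%) and 54.1% of control in LIM1215 (48.3% to 60.6%). The log2 ratios were 0.59 and −0.75, both short of the threshold. The HT29 value depended on the pseudocount, with 1.55, past the threshold, at 0.1 and 0.16 at 5. The LIM1215 value lay between −0.87 and −0.47 under all alternatives. Among all genes tested, 7.74% had a log2 ratio at least as high in HT29, and 3.57% had one at least as low in LIM1215.

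The difference of the responses, LIM1215 minus HT29, was −1.34 for CFTR. Of all genes, 2.58% had a difference of −1 or lower, 2.55% one of 1 or higher and 5.13% one of at least 1 in either direction, and 1.42% were as low as CFTR. Among the 7 genes, CFTR alone was past this threshold, at which it fell short with a pseudocount of 5 (−0.63). This value uses the same 4 libraries as the line differences above, so it is no separate evidence. It was not tested, since each group had 1 library.

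**Figure D2:**
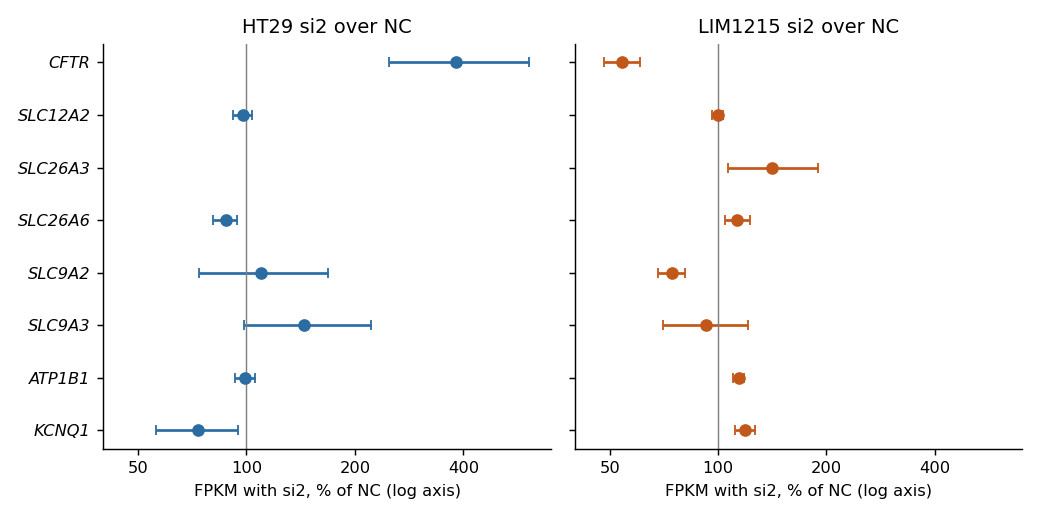
FPKM with the TMEM161A siRNA in percent of the control siRNA (log axis) in HT29 (left) and LIM1215 (right); points are ratios of 1 library each and bars are 95% counting intervals, which leave out variation between cultures. CFTR stands at 383% in HT29 and 54.1% in LIM1215, and SLC26A3 has no point in HT29 because its control value is listed at 0.

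The annotated CFTR locus in this release reaches far upstream. Over its whole length, and not only in the upstream part, it overlaps CTTNBP2, WNT2, ASZ1 and CFTR-AS1 on the opposite strand. The library kit keeps the strand, but whether the counting used it was not given in the sources used here. CTTNBP2 was at an FPKM of 1.65 to 2.65, above CFTR in both HT29 libraries. CFTR-AS1 and ASZ1 were listed at 0 in all libraries.

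The entry step of chloride secretion, SLC12A2 (ENSG00000064651), carries sodium, potassium and chloride together across the blood-side membrane. Its FPKM was 14.4 and 14.0 in the HT29 control and si2 library and 51.9 and 51.8 in those of LIM1215. The libraries of each line thus lay close together and the lines far apart. LIM1215 was 3.61-fold higher between the controls (3.44 to 3.80) and 3.69-fold between the si2 libraries (3.51 to 3.88). With si2 it stood at 97.6% of control in HT29 (91.7% to 104%) and 99.8% in LIM1215 (96.3% to 103%).

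KCNQ1 (ENSG00000053918) forms a potassium channel of the blood-side membrane that keeps the cell negative while chloride leaves. Its FPKM was 2.16 and 1.58 in the HT29 control and si2 library and 29.6 and 35.3 in those of LIM1215. LIM1215 was 13.7-fold higher between the controls (11.5 to 16.5) and 22.3-fold between the si2 libraries (18.4 to 27.6). KCNQ1 with si2 was at 73.2% of control in HT29 (55.9% to 94.9%) and 119% in LIM1215 (112% to 127%), with log2 ratios of −0.29 and 0.25. The antisense transcript KCNQ1OT1, which overlaps it, was at 0.0878 to 0.101 in all libraries.

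KCNE3, the subunit that holds KCNQ1 channels open in colon, was chosen after its values were seen. It was listed at 0 in both HT29 libraries and had an FPKM in LIM1215 of 26.1 with the control and 42.2 with si2. There its si2 level was 161% of control (151% to 172%), and the ratio of KCNQ1 to KCNE3 in FPKM went from 1.13 to 0.836. KCNN4, the calcium-gated potassium channel of the same membrane, ran the other way between the lines. Its FPKM was 58.3 and 79.9 in HT29 and 20.8 and 22.8 in LIM1215, so KCNQ1 stood at 0.0370 and 0.0198 of KCNN4 in HT29 and at 1.43 and 1.55 in LIM1215.

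ATP1B1 (ENSG00000143153) is a beta subunit of the sodium pump, needed to bring the catalytic alpha subunit to the membrane. Its FPKM was 48.6 and 48.2 in the HT29 control and si2 library and 148 and 168 in those of LIM1215. LIM1215 was 3.04-fold higher between the controls (2.89 to 3.19) and 3.49-fold between the si2 libraries (3.32 to 3.67). ATP1B1 with si2 was at 99.2% of control in HT29 (93.1% to 105%) and 114% in LIM1215 (109.8% to 118%). NME7 overlaps ATP1B1 on the opposite strand and was lower in LIM1215, at 4.78 and 6.40 against 12.0 and 11.5 in HT29.

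The other abundant beta subunit, ATP1B3, differed less between the lines. Its FPKM was 195 and 168 in HT29 and 267 and 316 in LIM1215, a log2 ratio of 0.45 between the controls. In the controls ATP1B1 was thus at 0.249 of ATP1B3 in HT29 and at 0.553 in LIM1215. FXYD3, a small regulator of the pump named after its values were seen, was 16.5-fold higher in the LIM1215 control (14.2 to 19.1).

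SLC9A2 (ENSG00000115616) exchanges luminal sodium for protons. Its FPKM was 0.415 and 0.454 in the HT29 control and si2 library and 12.0 and 8.95 in those of LIM1215. Both HT29 values rested on about 50 fragments, at 47.4 and 52.6. LIM1215 was 29.0-fold higher between the controls (21.9 to 40.1) and 19.7-fold between the si2 libraries (14.8 to 26.3). The si2 level was 109% of control in HT29, with an interval of 73.7% to 168% that includes no difference. In LIM1215 it was 74.3% (68.2% to 80.9%), a log2 ratio of −0.39 that was short of the threshold.

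SLC9A3 (ENSG00000066230), the chief sodium-hydrogen exchanger of absorption in the gut, was low throughout. Its FPKM was 0.383 and 0.553 in the HT29 control and si2 library and 1.14 and 1.06 in those of LIM1215. The lines were in the same order as for SLC9A2 but closer, 2.99-fold apart in the controls (2.11 to 4.41). The si2 level was 145% of control in HT29 (98.3% to 222%) and 92.4% in LIM1215 (70.4% to 121%), and both intervals include 100%. EXOC3, at an FPKM of 21.6 to 41.6, and SLC9A3-AS1, at 24.4 to 78.3, overlap it on the opposite strand at far higher levels. SLC9A3 is therefore uncertain if strand was not used. PP7080, a long noncoding RNA, overlaps it on the same strand, at 8.30 and 10.8 in HT29 and 23.6 and 25.3 in LIM1215. Strand alone would not set PP7080 and SLC9A3 apart, so SLC9A3 stays uncertain with stranded counting as well.

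SLC26A3 (ENSG00000091138) takes up chloride in exchange for bicarbonate. It was listed at 0 in the HT29 control, where 3 fragments, the limit that a count of 0 allows, would give an FPKM of 0.0528. The HT29 si2 library had 0.0174, about 1 fragment. LIM1215 had 1.68 in the control and 2.37 in the si2 library, from an estimated 81.2 and 129 fragments. The si2 level in LIM1215 was 141% of control (106% to 189%), a log2 ratio of 0.33. Between the controls the log2 ratio was 1.42, and 0.42, short of the threshold, with a pseudocount of 5. The same alternative took the ratio between the si2 libraries from 1.73 to 0.55.

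SLC26A6 (ENSG00000225697), a chloride-bicarbonate exchanger found in many tissues, was the exception among the 7. Its FPKM was 27.7 and 24.2 in the HT29 control and si2 library and 26.3 and 29.8 in those of LIM1215. The lines overlap, and the LIM1215 control was at 94.9% of the HT29 control (87.7% to 103%). The si2 level was 87.5% of control in HT29 (80.9% to 94.4%) and 113% in LIM1215 (105% to 122%). SLC4A2, the blood-side exchanger and the most abundant anion exchanger listed, had 179.6 and 189.5 in HT29 and 160.0 and 166 in LIM1215.

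On the scale of log2(FPKM + 1), none of the 7 genes was past the threshold between si2 and control in either line, although the plain FPKM of CFTR in HT29 differed 3.83-fold. In HT29, 3.80% of all genes did, 1.85% higher and 1.95% lower, and in LIM1215 3.46% did, 1.68% higher and 1.78% lower. The median log2 ratio of the 7 genes was −0.01 in HT29 and 0.17 in LIM1215, against 0.04 and 0.02 over all genes. In HT29, 3 of the 7 were above 0 and 4 below. In LIM1215, 4 were above and 3 below, the latter being CFTR, SLC9A2 and SLC12A2.

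The 148 other genes of 12 lists of channels, exchangers, pumps and their regulators were set beside these. Of them, 103 passed the filter. Between the controls 19 were higher and 8 lower in LIM1215, beside 12.0% higher and 7.42% lower over all genes. The same shares over all genes stand beside the count of each list below. The median log2 ratio of the 103 was 0.24 against 0.05 over all genes. The 7 genes described above had a median of 1.78, but they were picked with this contrast known, so nothing is read from that value. In response to the siRNA, 1 of the 103 was past the threshold upward and 1 downward in HT29, and none in LIM1215. Over all genes, 3.80% were past it in HT29 and 3.46% in LIM1215.

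**Figure D3:**
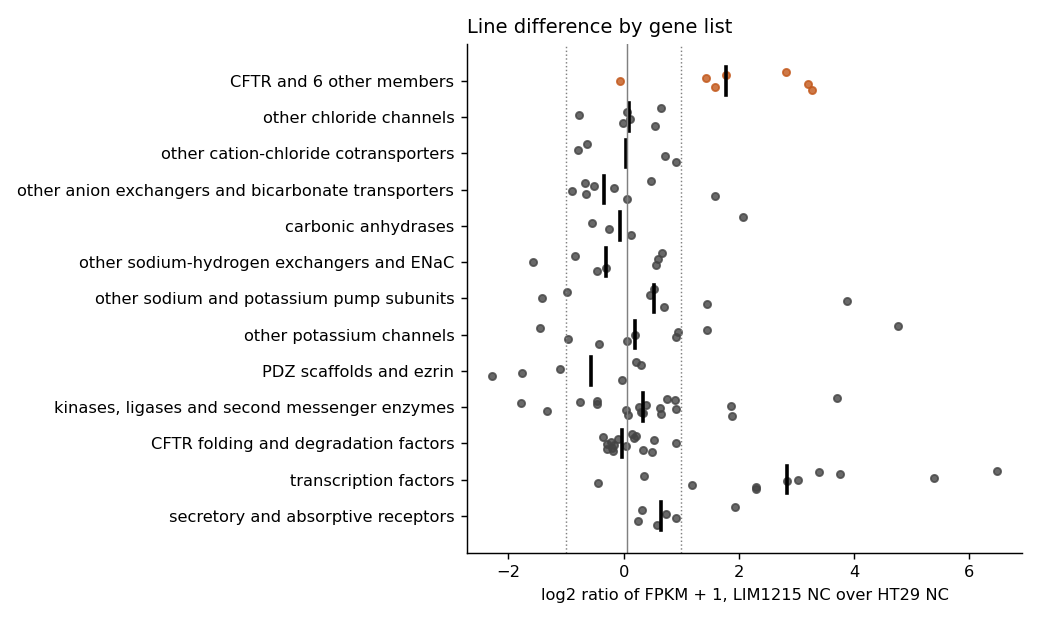
Log2 ratio of FPKM + 1, LIM1215 control over HT29 control, for the genes of each list that passed the filter; points are genes, thick bars list medians, the grey line the median of all 14803 genes and dotted lines the 2-fold threshold. The 7 genes described here, picked with this contrast known, have a median of 1.78. The transcription factors have one of 2.83, and the medians of the other lists lie between −0.57 and 0.65.

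Other chloride channels did not show the line difference of CFTR. Of 12, 6 passed the filter and none was past the threshold in any comparison. The calcium-gated channel ANO1 had an FPKM of 29.2 and 45.0 in HT29 and 31.7 and 35.9 in LIM1215. CFTR thus stood at 0.00746 of ANO1 in the HT29 control and at 0.239 in the LIM1215 control. CLCN3, a chloride transporter of endosomes, was at 33.7 to 36.9 in all libraries. CLCA1 was listed at 0 in all libraries.

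Of the other cation-chloride cotransporters, 4 of 7 passed and none was past the threshold between the lines or with si2. SLC12A7, a potassium-chloride exit pathway, had an FPKM of 16.1 and 18.2 in HT29 and 26.9 and 32.6 in LIM1215. SLC12A9 had 11.8 and 18.5 in HT29 and 23.0 and 28.3 in LIM1215.

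Of the other anion exchangers and bicarbonate transporters, 8 of 13 passed and 1, SLC4A8, was higher in the LIM1215 control. SLC26A1, a sulfate and anion exchanger, was the gene past the threshold upward in HT29. There its FPKM was 1.93 (control) and 5.96 (si2), a log2 ratio of 1.25, and in LIM1215 it was 3.08 and 5.73 (0.72). SLC4A11 was at 7.41 to 8.44 in all libraries.

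Of the carbonic anhydrases, which supply bicarbonate, 4 of 7 passed and 1, CA1, was higher in the LIM1215 control. CA2, the most abundant of the list, had an FPKM of 26.4 and 18.4 in HT29 and 17.8 and 9.65 in LIM1215. Its si2 level was 69.5% of control in HT29 (62.1% to 77.7%) and 54.3% in LIM1215 (46.3% to 63.2%), with log2 ratios of −0.50 and −0.82. CA13 had log2 ratios of −0.82 and −0.15.

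Of the other sodium-hydrogen exchangers and epithelial sodium channel subunits, 7 of 11 passed and 1, SLC9A7, was lower in the LIM1215 control. SCNN1A, the alpha subunit of the sodium channel, was at 62.2 to 76.7 in all libraries. Its partner SCNN1G was listed at 0 in every library, and SCNN1B was at 0.131 or below.

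Of the pump subunits other than ATP1B1, 7 of 13 passed, with 2 higher and 1 lower in the LIM1215 control. Of the other potassium channels, 9 of 17 passed, with 2 higher (KCNE3 and KCNK1) and 1 lower (KCNN4). KCNK1, a background potassium channel, had an FPKM of 18.8 and 21.2 in HT29 and 53.2 and 72.5 in LIM1215.

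In a list of PDZ scaffolds, ezrin and related genes, none was 2-fold higher in the LIM1215 control. EZR, the link to actin, had an FPKM of 776 and 937 in HT29 and 359 and 356 in LIM1215. NHERF1, a scaffold with PDZ domains, had 69.1 and 60.5 in HT29 and 80.1 and 83.3 in LIM1215. Of the 6 genes of this list that passed, 3 were lower in the LIM1215 control by the threshold. EZR was among these 3, and none of them was a PDZ scaffold. By sign alone 2 of the 6 were above 0, NHERF1 among them with a log2 ratio of 0.21, and 4 were below.

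Kinases, ligases and second messenger enzymes had 19 of 20 genes that passed, 3 of them higher and 2 lower in the LIM1215 control. PRKAR1A, a regulatory subunit of protein kinase A, had an FPKM of 205 and 249 in HT29 and 148 and 167 in LIM1215. ADCY3, an adenylyl cyclase, had 37.0 and 39.1 in HT29 and 63.2 and 66.9 in LIM1215. GUCY2C, the guanylyl cyclase that raises cyclic GMP upstream of CFTR, was picked after its values were seen. It was listed at 0 in both HT29 libraries and had 11.9 and 9.30 in LIM1215. No gene of the list was past the threshold with si2.

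Of 16 factors for the folding and degradation of CFTR protein, all passed and none differed 2-fold between the controls. SYVN1, a ubiquitin ligase of the endoplasmic reticulum, was the gene past the threshold downward in HT29. Its FPKM went from 71.4 to 29.8 there (log2 ratio −1.23) and from 58.2 to 33.6 in LIM1215 (−0.78). CANX, a chaperone of the same compartment, had log2 ratios of −0.35 in both lines. HSPA8, a cytosolic chaperone, had 0.26 in HT29 and 0.63 in LIM1215.

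Of the secretory and absorptive receptors, 6 of 11 passed, and 1 was higher in the LIM1215 control. F2RL1, a receptor cleaved by proteases, was at 44.3 to 52.5 in all libraries. ADORA2B, an adenosine receptor that raises cyclic AMP, had an FPKM of 33.6 and 31.9 in HT29 and 42.0 and 28.4 in LIM1215.

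**Figure D4:**
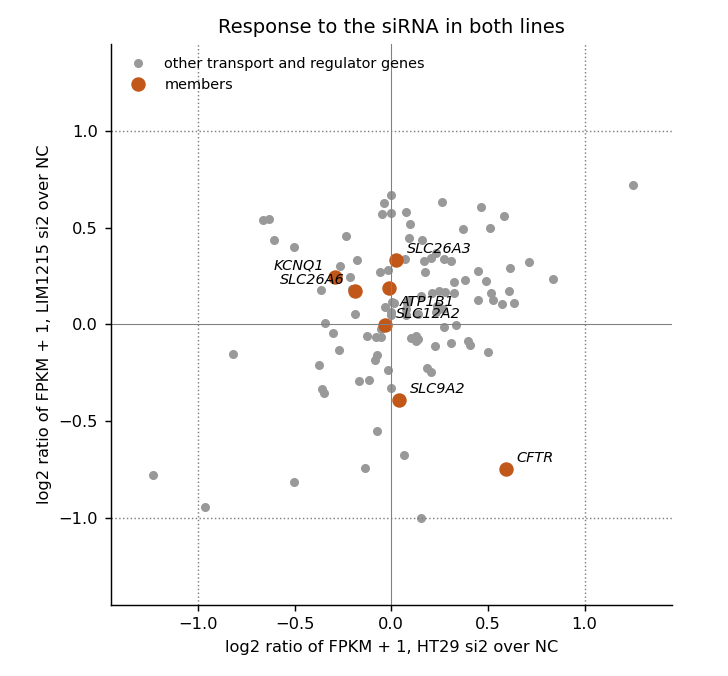
Log2 ratio of FPKM + 1, si2 over control, in HT29 (horizontal) and LIM1215 (vertical) for 7 of the 8 genes (orange) and the 103 other listed genes that passed the filter (grey); dotted lines mark the 2-fold threshold. CFTR lies at 0.59 and −0.75, to the lower right, and the other 6 genes lie within 0.39 of 0 on both axes.

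A list of transcription factors, several of which are known to act on CFTR in gut cells, showed the largest line difference of the 12 lists by median. Of 13, 11 passed, 9 were higher in the LIM1215 control and none lower, with a median log2 ratio of 2.83. The list holds TCF4, the E protein of that symbol, in place of the gut factor TCF7L2, which shares the name as an alias. Without TCF4, 8 of 10 were higher, with a median of 2.93. ELF3 had an FPKM of 133 and 128 in HT29 and 304 and 368 in LIM1215. EHF was lower in LIM1215, at 69.4 and 81.6 against 94.7 and 123 in HT29.

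Further factors were chosen after their values were seen. CDX2 had 8.29 and 8.04 in HT29 and 96.8 and 150.1 in LIM1215. HNF4A had 0.0948 and 0.0886 in HT29 and 44.7 and 51.2 in LIM1215, and CDX1 was listed at 0 in both HT29 libraries and had 88.4 and 132 in LIM1215. KLF5 had 29.7 and 42.5 in HT29 and 149 and 135 in LIM1215. With si2, none of the 11 factors was past the threshold in either line. In LIM1215, 10 were above 0 and 1, KLF5, below, and in HT29, 4 were above 0 and 5 below. The level of CDX2 with si2 was 97.1% of control in HT29 (86.1% to 109%) and 155% in LIM1215 (149.9% to 160.0%). That of KLF5 was 143% in HT29 (135% to 151%) and 90.6% in LIM1215 (87.8% to 93.3%). A link between any of these factors and the level of CFTR was not tested.

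**Figure D5:**
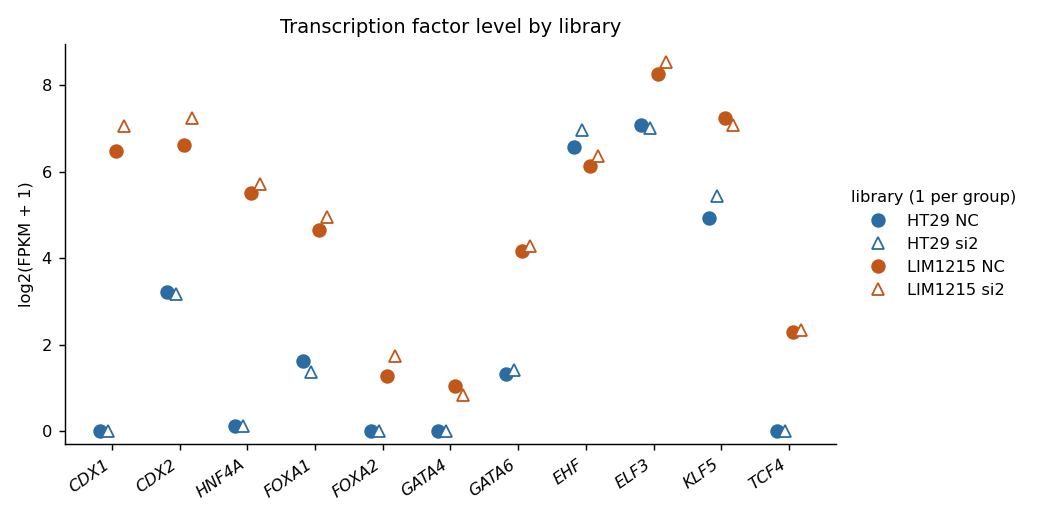
Level of 11 of the 13 transcription factors, including FOXA2 and GATA4, which did not pass the filter, as log2(FPKM + 1), in the 4 libraries (filled circles NC, open triangles si2, blue HT29, orange LIM1215; 1 library per point). CDX1, CDX2, HNF4A, FOXA1 and GATA6 lie far higher in LIM1215, and EHF lies lower there.

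Genes of similar pattern were sought among 12277 protein-coding genes, by the distance between profiles of log2(FPKM + 1) over the 4 libraries, centred on their mean. For CFTR they were SUSD4 (distance 0.226), TM4SF1 (0.330) and YBX2 (0.336). SUSD4 had an FPKM of 0.2497 and 0.735 in the HT29 control and si2 library and 6.78 and 4.68 in those of LIM1215. TM4SF1 had 0.121 and 0.463 in HT29 and 8.43 and 3.62 in LIM1215. Both share the CFTR pattern of a high LIM1215 control, a lower LIM1215 si2 library and low HT29 libraries of which the si2 one was the higher.

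The neighbours of CFTR lay farther away than those of the other genes. The nearest gene was at 0.0154 for SLC26A6 (PREPL), 0.0453 for SLC26A3 (FDFT1), 0.0517 for SLC12A2 (OVOL1), 0.0578 for ATP1B1 (SIDT1), 0.0702 for SLC9A2 (SARM1) and 0.0745 for KCNQ1 (MYB). With 4 libraries, such likeness is a description of these profiles alone. CFTR was picked by its values in these same libraries, so nothing is read from its larger distance.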

How the data were processed

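The authors deposited FPKM values per Ensembl gene, 1 table per library, from stranded mRNA libraries. Per the submitters' processing notes, HISAT2 2.1.0, SAMtools 1.20, Cufflinks 2.2.1 and Cuffdiff were used with GRCh38. Their roles and settings, the gene annotation, filters and the handling of overlapping genes were not given in the sources used here. Symbols, positions and canonical transcript lengths came from GENCODE release 44, for 56550 of 60658 identifiers.

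Log2 ratios of FPKM + 1 were computed with Python 3.11.15, pandas 2.3.3 and scipy 1.17.1, for genes with a mean FPKM of at least 1. No p-value was computed, as each group had 1 library. Fragments per gene were estimated from the steps of low values in genes with 1 transcript of at least 500 bases. With the fitted depth and length offset, 80.4% to 83.0% of low values lay within 0.03 of a whole number, against 6% without such steps. Calls and depth fit were tested on simulated data. Groups followed the sample titles.

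Genes named besides the 8 were, per list, the 2 with the highest mean FPKM and all past the threshold with si2, plus the 3 nearest profiles per gene. Others named from the lists fall outside this rule and were picked with their values known, which is said at most of them. It also holds for CLCA1, SLC4A8, CA1, SLC9A7, SCNN1B and SCNN1G, and for the factors named in a caption alone. The genes and lists were chosen with earlier results of these data known. Alternatives were pseudocounts of 0.1 and 5, no filter or a mean of at least 5, centring, a common sum (TPM), upper quartile scaling and a 1.5-fold threshold. Their use for the other lists and for the difference of responses was added after the data were seen, as were the share of genes with opposite responses and the factor list without TCF4. A few listed genes enter the counts and are not reported here by name.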

Additional observations from a re-analysis of the deposited data

Results flagged for a closer look

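For 6 of the 8 transporter genes the log2 ratio of si2 over control was above 0 in one line and below 0 in the other, as for 33.8% of all 14803 genes tested. The counting interval of the si2 level included 100% in HT29 for SLC9A2, SLC9A3 and ATP1B1, and in LIM1215 for SLC9A3, so the sign of those values is not settled even by counting. The difference, LIM1215 minus HT29, was −1.34 for CFTR (0.59 in HT29 and −0.75 in LIM1215), −0.43 for SLC9A2, −0.23 for SLC9A3, 0.20 for ATP1B1, 0.36 for SLC26A6 and 0.54 for KCNQ1. Among the other named genes the same held for ATP1B3 (0.46), ELF3 (0.33), SCNN1A (0.30), NHERF1 (0.24), F2RL1 (−0.19) and EZR (−0.28). None of these differences was tested, as each line had 1 library per siRNA. Only that of CFTR exceeded 1 in size, and the HT29 value of CFTR rested on an estimated 27.1 fragments in the control.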

How the results depend on the processing

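Each of the 40 log2 ratios of the 8 genes was recomputed under 5 alternatives of pseudocount and scaling. No called value was reversed, 39 ratios kept their sign, and SLC26A3 in HT29, listed at 0 in the control, went from 0.02 to −0.01 after centring. Of the 40 ratios, 6 changed side of the threshold under an alternative. Among them was SLC9A3 between the controls, a gene under the filter, which went from 0.63 to 1.37 with a pseudocount of 0.1. The cause was not tested where none is named. Between the lines, 4 to 6 of the genes stayed past the threshold under every alternative. With si2 in HT29, 1 of the genes (CFTR) was past it with a pseudocount of 0.1 or a 1.5-fold threshold, against 0. In LIM1215, 1 (CFTR) was past the 1.5-fold threshold, against 0. For the difference of responses the count went from 1 to 0 with a pseudocount of 5, and to 0 with a mean FPKM of at least 5, which leaves CFTR out. Over the other lists, the 1.5-fold threshold raised the counts from 27 to 53 between the controls, 33 to 52 between the si2 libraries, 2 to 12 in HT29, 0 to 11 in LIM1215 and 4 to 14 for the difference. A pseudocount of 0.1 gave 6 in HT29 and 1 in LIM1215, and a pseudocount of 5 gave 1 in HT29 and 0 for the difference. A mean of at least 5 gave 1 in HT29 and 1 for the difference, while centring and a common sum each gave 1 in LIM1215. Over all genes, a pseudocount of 5 lowered the share past the threshold from 19.4% to 8.78% between the controls, 21.2% to 10.5% between the si2 libraries, 3.80% to 1.22% in HT29, 3.46% to 1.05% in LIM1215 and 5.13% to 1.58% for the difference. A pseudocount of 0.1 raised the last 3 shares to 7.62%, 6.65% and 9.78%. The 1.5-fold threshold gave 38.0%, 39.0%, 14.8%, 12.8% and 15.8%, in the same order of comparisons. A mean of at least 5 lowered the numbers of genes past the threshold from 2872, 3139, 562, 512 and 759 to 1670, 1851, 272, 202 and 246. Without a filter the last 2 were 770 and 1369. No paired analysis was possible because, within a line, each siRNA had 1 library. A fit over both lines with line as a block would leave 1 residual degree of freedom and was not run. Depth limits SLC26A3, SLC9A3 and the HT29 values of CFTR, SLC9A2 and KCNQ1, which rested on 138 estimated fragments or fewer per library.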

Other observations

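Some listed genes outside the 8 were picked after their values were seen. ANO6, a calcium-gated scramblase and ion channel, had nearly the same levels in both lines, with an FPKM of 25.4 and 25.3 in the HT29 and LIM1215 controls and 12.5 and 12.6 in the si2 libraries. Its si2 level was 49.3% of control in HT29 (46.4% to 52.4%) and 50.03% in LIM1215 (46.9% to 53.3%), and its log2 ratios of −0.96 and −0.95 missed the threshold. In LIM1215, CA1, a carbonic anhydrase of mature colonocytes, went from 3.88 to 1.44, at 37.2% of control (26.2% to 52.9%). These levels rested on an estimated 114 and 47.5 fragments. The 11 colon epithelium markers mostly went the other way there, with 10 above 0 and 1 below. Their median log2 ratio was 0.30, against 0.02 over all genes, of which 53.1% were above 0.

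Of the 103 other genes, 4 (3.88%) had responses at least 2-fold apart between the lines, a lower share than the 5.13% of all genes. Nothing is read from this count, and 3 of the 4 are given. PDE5A, which breaks down cyclic GMP, was at 49.3% in HT29 (41.1% to 58.7%) and 159% in LIM1215 (141% to 179%). KCNS3, a modulatory potassium channel subunit, was at 57.5% and 143%, and CA1 had a difference of −1.15. PDE5A and KCNS3 ran from lower in HT29 to higher in LIM1215, CA1 the other way, and none was tested.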
